A study of Mus musculus with 16 samples.

Results

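A set of 10 genes that mark fibroblasts and their extracellular matrix were followed in RNA bisulfite sequencing of mouse embryonic stem cells: Col1a1, Col1a2, Col3a1, Fn1, Sparc, Ccn2, Thy1, Vim, Acta2 and Tagln. They were taken by name, and every RefSeq mRNA reference of these genes that the deposited files list was used. Each gene had 1 listed reference, so 10 references stand for 10 of the 13271 named genes in these libraries. The level of a gene is the scaled mean coverage, the mean number of reads over its listed cytosines after scaling each library for depth.

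The libraries came from Dnmt2-/- and wild-type embryonic stem cells, both of the J1 background, with 3 libraries of each genotype in the rRNA-depleted long RNA fraction. Dnmt2, whose gene symbol is Trdmt1, is a tRNA cytosine methyltransferase, and bisulfite converts unmethylated cytosines, so that a methylated cytosine is read as non-converted. Both genotypes grew on primary mouse embryonic fibroblast feeders with leukaemia inhibitory factor (ESGRO) and serum, and the feeders were removed before harvest by letting them attach to dishes in repeated rounds. The labels give no number of knockout lines or clones and do not say whether replicates were separate cultures, so a p-value here reflects the variation among these libraries alone, and that variation may be technical. No library of feeders alone was analysed here, and a level could not be converted into a share of feeder cells. In bulk RNA, fewer cells of a type and less RNA per cell cannot be told apart.

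Fibroblasts build connective tissue. They secrete fibrillar collagens, whose chains assemble into triple helices, together with fibronectin, onto which other matrix proteins are laid down, and adaptor proteins that bind them. In culture they take on contractile features, with smooth muscle actin and actin-binding proteins, and carry an intermediate filament network of vimentin. Embryonic stem cells and cells that leave pluripotency can also express several of these genes, among them vimentin and fibronectin, so that none of the 10 marks feeders alone.

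Vim and Col1a2 were the genes whose knockout libraries all lay below the wild-type libraries, and their promoters are therefore shown. The stretches run from 250 bases before to 50 bases after the gene start (RefSeq, GRCm38.p6), 5′ to 3′ on the plus strand, at chr2:13574061-13574360 for Vim and chr6:4505368-4505667 for Col1a2. Capitals mark the CCAAT box, read as CCAAT on either strand (ATTGG on the printed strand). A CCAAT match occurred in 37.4% of 32851 promoters of this length.
Vim: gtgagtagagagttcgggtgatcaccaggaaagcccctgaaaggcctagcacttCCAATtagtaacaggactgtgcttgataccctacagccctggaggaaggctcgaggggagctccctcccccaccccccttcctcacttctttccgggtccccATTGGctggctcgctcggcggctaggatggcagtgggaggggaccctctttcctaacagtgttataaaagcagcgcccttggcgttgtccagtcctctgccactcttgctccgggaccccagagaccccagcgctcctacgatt
Col1a2: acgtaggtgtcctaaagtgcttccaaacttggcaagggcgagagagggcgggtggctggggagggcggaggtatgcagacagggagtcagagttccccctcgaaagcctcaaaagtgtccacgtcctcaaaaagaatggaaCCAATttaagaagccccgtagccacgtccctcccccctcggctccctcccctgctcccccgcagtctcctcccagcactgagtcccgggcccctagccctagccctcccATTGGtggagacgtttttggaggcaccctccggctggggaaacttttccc
Each of these promoters held 2 matches, and the match farthest upstream began 196 bases before the start in Vim and 109 bases before it in Col1a2. Of the 10 genes, 5 had a promoter in the table used, and those of Col3a1, Sparc and Acta2 held no CCAAT match within the window. In Vim and Col1a2 the other match lay nearer the start, in Col1a2 just after it. Another 4 motifs were searched on both strands. The GC box (GGGCGG, in 35.7% of all promoters) was, of the 5 promoters, in that of Col1a2. The TATA box (TATAAA, 13.6%) was in Vim and Col3a1, and the TEAD motif (GGAATG, 14.7%) in Col3a1 and Acta2. No stretch of the 5 matched the form of the CArG box that was searched (1.63% of all promoters). Variant forms of these motifs were not searched, so such forms may be present, in Acta2 as elsewhere. A match is a stretch of letters and not a measured binding site.

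The 6 libraries listed 15330 references. Summed coverage was 93517724 to 109992584 in the knockout libraries and 37786723 to 143488903 in the wild-type libraries, with wild-type replicate 3 the shallowest. A listed cytosine had a median coverage of 9 to 10 reads in the knockout libraries and 6 to 11 reads in the wild-type libraries, so that genes at a few reads per cytosine rest on few reads. The targeted gene went with the labels. Trdmt1 had 1.30, 0.458 and 0.978 reads per cytosine in the knockout libraries, against 4.32, 3.47 and 2.93 in the wild-type libraries. Beyond position 200 of its reference, a boundary chosen after its values were seen, 0 of 154 cytosines were listed in each knockout library, against 95, 127 and 48 in the wild-type libraries.

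Levels of the 10 genes covered a wide range and fell into a low and a high set. Averaged over the 6 libraries, Col3a1 was lowest at 1.10 reads per cytosine, followed by Thy1 at 3.44, Col1a1 at 4.40, Col1a2 at 5.45 and Sparc at 5.95. The ranges over libraries of the last 4 of these overlapped, so their order did not exceed the spread between libraries. Acta2 at 19.1, Tagln at 23.6, Fn1 at 31.1, Ccn2 at 56.5 and Vim at 77.1 formed the high set. In it Acta2, Tagln and Fn1 overlapped each other, and Vim overlapped Ccn2 and Fn1. The sets met in single libraries, since Acta2 at 7.08 in knockout replicate 3 lay below Sparc at 8.28 in wild-type replicate 2. Among the 10949 references tested, the mean level of Col3a1 stood at percentile 2.65 and those of Col1a1, Col1a2 and Sparc at percentiles 42.4, 48.6 and 50.9. Those of Acta2, Tagln, Fn1, Ccn2 and Vim stood at percentiles 81.0 to 96.1. The 10 genes thus did not stand at a common level, and the fibrillar collagens, abundant products of fibroblasts, were at or below the middle of the tested references. Fn1 was averaged over 125 listed cytosines and Sparc over 21, against 1364 in Col1a1. Levels of different genes therefore describe unlike stretches of their references.

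**Figure D1:**
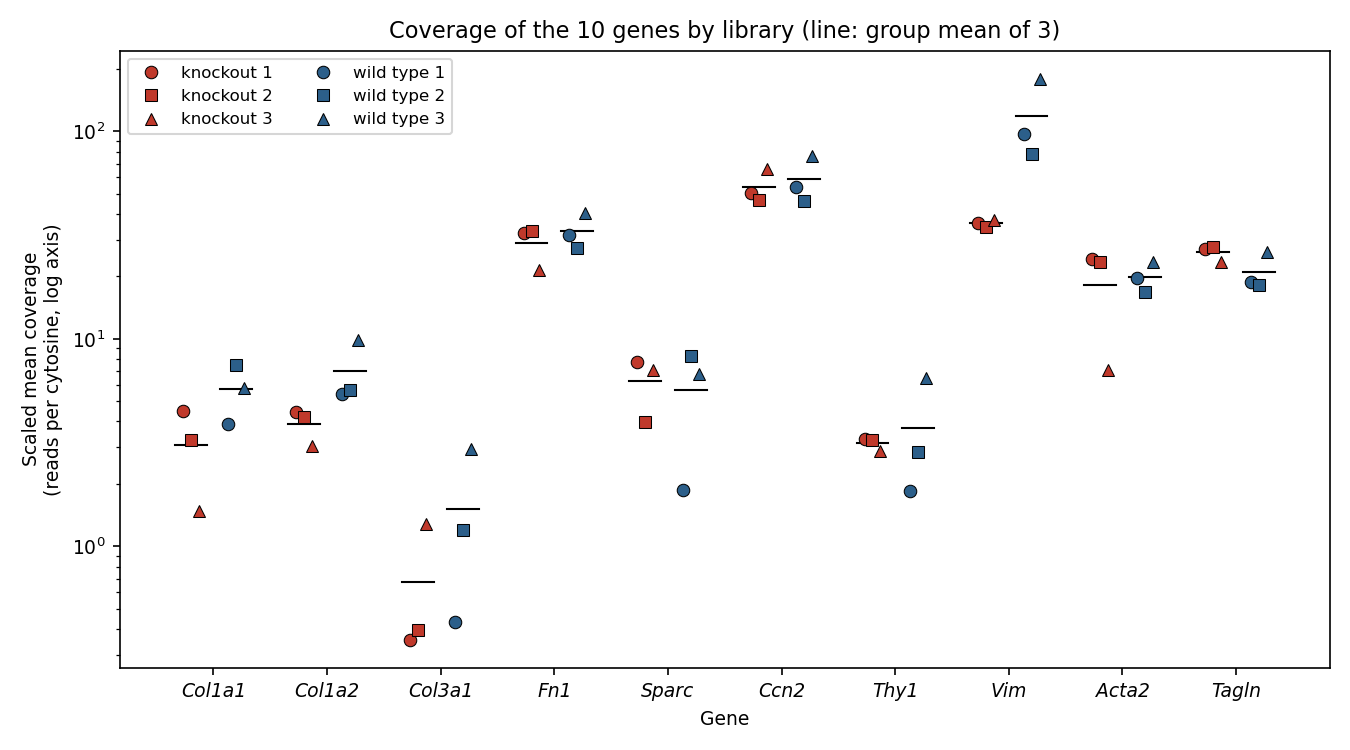
Scaled mean coverage (reads per cytosine, logarithmic axis) of each gene in each library, with the 3 knockout libraries on the left and the 3 wild-type libraries on the right and a line at each group mean. Vim separates the genotypes without overlap, at 34.6 to 37.4 in the knockout libraries and 77.7 to 179.3 in the wild-type libraries, while Ccn2 and Fn1 overlap.

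For coverage, limma found no reference that differed between knockout and wild type at a Benjamini-Hochberg adjusted p under 0.05 over the 10949 references tested (0.00%, with 778 at an unadjusted p under 0.05). None of the 10 genes passed, and Vim and Col1a2 were the 2 genes with an unadjusted p under 0.05, both with lower values in knockout libraries. Over all references 4.16% were lower at that unadjusted level. The knockout libraries all lay below the wild-type libraries for 2 of the 10 genes, against 5.98% of all references, and all above for 0 of the 10, against 6.13% of all references. The log2 difference, knockout minus wild type, was negative for 8 genes and positive for Sparc and Tagln, with a median of -0.25 over the 10 genes and 0.03 over all references tested.

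**Figure D2:**
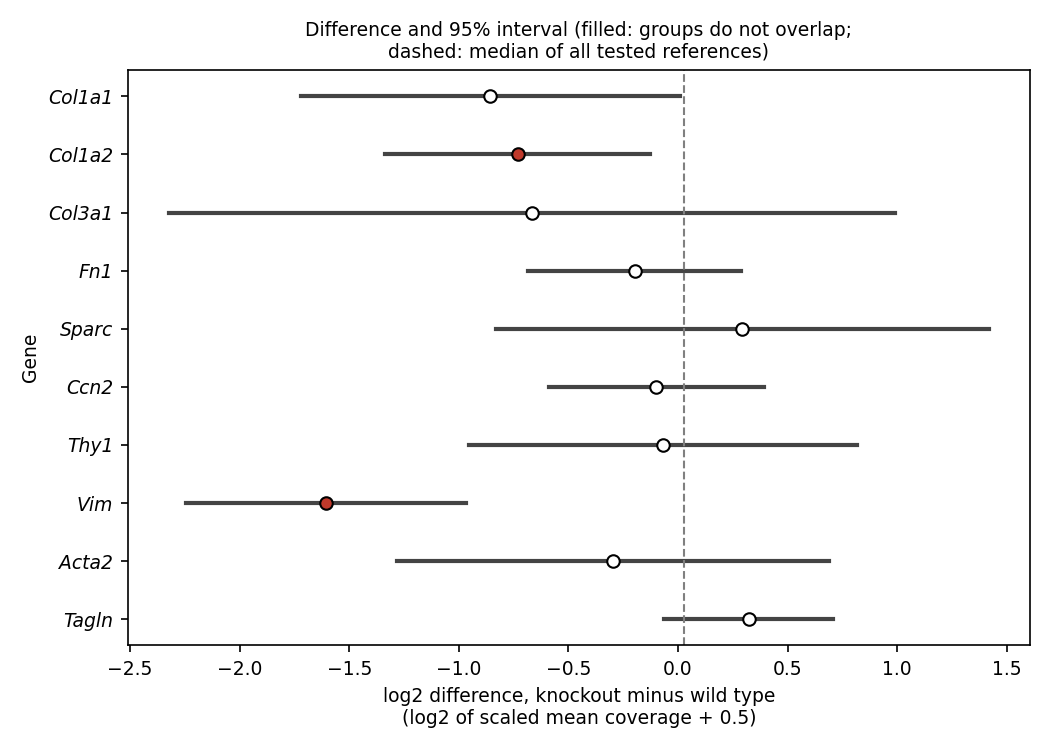
Log2 difference in scaled mean coverage, knockout minus wild type, for each gene (points) with its 95% interval from limma (bars), and the median of all tested references as a dashed line. Filled points are Vim and Col1a2, whose groups do not overlap, and the intervals of the other 8 genes include 0.

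The fibrillar collagens came first among the matrix genes. Col1a1 (NM_007742.3, chromosome 11) encodes the alpha 1 chain of type I collagen, the main collagen of skin, tendon and bone. It had 4.48, 3.26 and 1.48 reads per cytosine in the knockout libraries, against 3.87, 7.52 and 5.81 in the wild-type libraries. Knockout replicate 3 was the lowest and wild-type replicate 2 the highest, and the groups overlapped through wild-type replicate 1, which lay below knockout replicate 1. The means were 3.08 ± 1.51 in knockout and 5.73 ± 1.83 in wild type (SD, n = 3 each), with a log2 difference of -0.86 (SE 0.37, limma adjusted p = 0.707). Without knockout replicate 3, it was -0.49. Its 1364 listed cytosines ran from position 20 to position 4467 of the reference, and 80.1%, 66.6% and 38.4% of them were listed in the knockout libraries, against 62.7%, 98.8% and 41.7% in the wild-type libraries.

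Col1a2 (NM_007743.2, chromosome 6), the alpha 2 chain that joins the alpha 1 chains in type I collagen, had 4.44, 4.22 and 3.04 reads per cytosine in the knockout libraries, against 5.41, 5.67 and 9.89 in the wild-type libraries. Every knockout library lay below every wild-type library, with a gap of less than 1 read per cytosine between knockout replicate 1 and wild-type replicate 1. The means were 3.90 ± 0.755 in knockout and 6.99 ± 2.51 in wild type (SD, n = 3 each). The log2 difference was -0.73 (SE 0.26, 95% interval -1.34 to -0.13), with an unadjusted p of 0.0237 and an adjusted p of 0.548 in limma. Cytosine by cytosine, 205 of 1215 (16.9%) had all knockout libraries below all wild-type libraries and 2 (0.165%) had them all above, against 3.54% below and 3.81% above over all cytosines of the tested references.

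Col3a1 (NM_009930.2, chromosome 1) encodes type III collagen, which accompanies type I collagen in skin, vessels and other pliable tissue. It was close to the detection limit, with 0.355, 0.394 and 1.28 reads per cytosine in the knockout libraries, against 0.432, 1.20 and 2.94 in the wild-type libraries. Replicate 3 was the highest library in each genotype, and the groups overlapped. Of its 518 cytosines, 12.7%, 12.5% and 40.9% were listed in the knockout libraries, against 10.6%, 56.4% and 30.3% in the wild-type libraries. The log2 difference of -0.67 had an SE of 0.72 (limma adjusted p = 0.975), and it was -1.13 without wild-type replicate 1.

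The ratio of one collagen to another also varied between libraries. Col3a1 per Col1a1 was 0.0792, 0.121 and 0.862 in the knockout libraries, against 0.112, 0.159 and 0.506 in the wild-type libraries, so that replicate 3 was highest in both genotypes. Col1a1 per Col1a2, chains of the same protein, was 1.01, 0.772 and 0.488 in the knockout libraries, against 0.715, 1.33 and 0.587 in the wild-type libraries. The groups overlapped in both ratios.

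Each reference was divided into 10 equal segments from its 5′ end to its last listed cytosine, and the collagens kept their library order unevenly along them. In segment 7 of Col1a2, coverage was 7.60, 5.04 and 6.04 in the knockout libraries, against 5.72, 8.28 and 14.1 in the wild-type libraries, and the groups overlapped there. In segment 6 it was 4.12, 4.46 and 3.07 in the knockout libraries, against 7.19, 6.15 and 11.5 in the wild-type libraries, with no overlap. The groups of Col1a2 also overlapped in segments 2, 8, 9 and 10, and did not in segments 1, 3, 4 and 5. Col3a1 had stretches at 0: in its segment 4, knockout replicates 1 and 2 had no listed cytosine and knockout replicate 3 had 2.06 reads per cytosine, against 0.0475, 1.39 and 3.66 in the wild-type libraries.

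**Figure D3:**
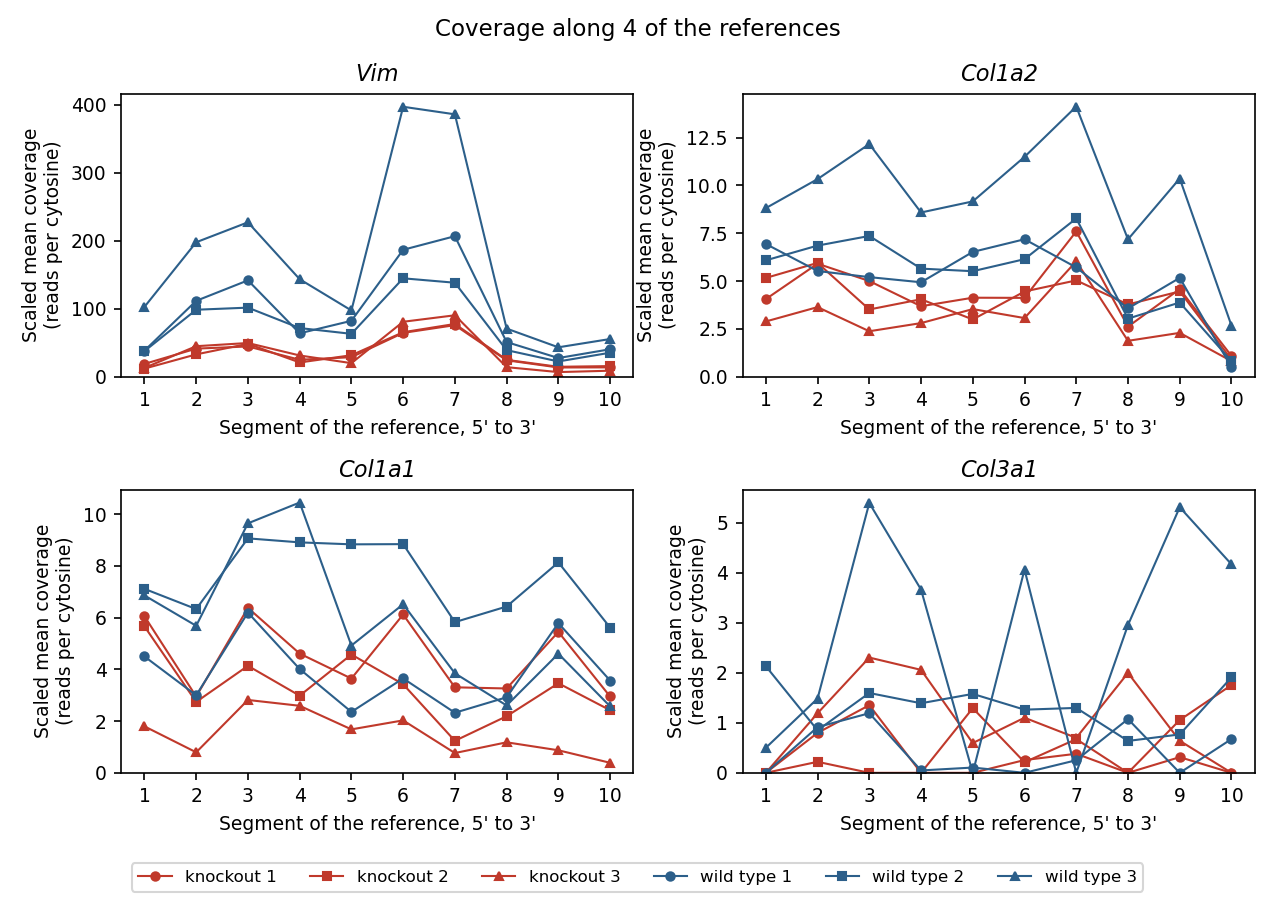
Scaled mean coverage (reads per cytosine) in each of 10 segments of the reference, counted up to its last listed cytosine, for Vim, Col1a2, Col1a1 and Col3a1, with 1 line per library. In Vim the wild-type lines lie above the knockout lines in all 10 segments, while in Col1a2, Col1a1 and Col3a1 the lines cross.

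Of the 3 secreted matrix proteins Fn1, Sparc and Ccn2, Fn1 and Sparc were each listed over a short window. Fn1 (NM_010233.2, chromosome 1) encodes fibronectin, which links integrins to the matrix. Its 125 listed cytosines lay between positions 3964 and 4434 of the reference, so its level describes that stretch and not the whole mRNA. Fn1 had 32.6, 33.1 and 21.5 reads per cytosine in the knockout libraries, against 31.6, 27.5 and 40.4 in the wild-type libraries. The lowest value was in knockout replicate 3 and the highest in wild-type replicate 3, with overlap between them. The means of 29.0 ± 6.58 in knockout and 33.2 ± 6.60 in wild type (SD, n = 3 each) differed by less than 1 SD, and the log2 difference was -0.20 (SE 0.21, limma adjusted p = 0.975), or -0.0088 without knockout replicate 3.

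Sparc (NM_009242.5, chromosome 11), a secreted protein that binds collagen, was listed at 21 cytosines between positions 328 and 405. It had 7.74, 3.98 and 7.07 reads per cytosine in the knockout libraries, against 1.88, 8.28 and 6.78 in the wild-type libraries. Wild-type replicate 1 was lowest and wild-type replicate 2 highest, so the knockout libraries lay within the range of the wild type. The log2 difference was 0.29 (SE 0.49, limma adjusted p = 0.986), and it was -0.29 without wild-type replicate 1.

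Ccn2 (NM_010217.2, chromosome 10), connective tissue growth factor, is a secreted regulator of matrix production and a target gene of YAP. Its 500 listed cytosines ran from position 278 to position 2364. It was the steadiest of the highly covered genes after Tagln, with a highest library 1.66 times the lowest. Its coverage was 50.3, 46.7 and 65.7 reads per cytosine in the knockout libraries, against 54.0, 46.0 and 76.5 in the wild-type libraries. In each genotype replicate 3 was highest and replicate 2 lowest. The means were 54.2 ± 10.1 in knockout and 58.8 ± 15.8 in wild type (SD, n = 3 each), and the log2 difference was -0.10 (SE 0.21, 95% interval -0.59 to 0.39, limma adjusted p = 0.991).

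Thy1 (NM_009382.3, chromosome 9), a glycolipid-anchored surface protein used to sort and deplete fibroblasts, had 3.31, 3.25 and 2.88 reads per cytosine in the knockout libraries, against 1.86, 2.86 and 6.50 in the wild-type libraries. The knockout libraries were close together, at 3.15 ± 0.232, and the wild-type libraries spread around them, at 3.74 ± 2.44 (SD, n = 3 each). The log2 difference was -0.07 (SE 0.38, limma adjusted p = 0.995). Without wild-type replicate 3, it was 0.37.

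Vim (NM_011701.4, chromosome 2), the intermediate filament protein of mesenchymal cells, showed the widest separation of the 10 genes. It had 36.1, 34.6 and 37.4 reads per cytosine in the knockout libraries, against 97.3, 77.7 and 179.3 in the wild-type libraries. All knockout libraries lay below all wild-type libraries, with the knockout libraries nearly equal and wild-type replicate 3 the highest. The mean of 36.1 ± 1.40 in knockout and of 118.1 ± 53.9 in wild type (SD, n = 3 each) put the wild type 3.28-fold above the knockout. The log2 difference was -1.61 (SE 0.28, 95% interval -2.25 to -0.97). In limma the unadjusted p was 0.000435, which ranked Vim at 13 of the 10949 references, and the adjusted p was 0.346. Where an unlisted cytosine was counted as 2 reads in place of 0, which brought all 15330 references into the test, the log2 difference was -1.36 and the adjusted p was 0.039.

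The separation of Vim ran along the whole reference. Of its 485 cytosines, 452 (93.2%) had all knockout libraries below all wild-type libraries, and 0 had them all above. Over all cytosines of the tested references the shares were 3.54% below and 3.81% above. Cytosines of 1 reference share reads, so these counts describe the breadth of the difference and not independent measurements. Segment 6, among the most covered, had 64.6, 65.5 and 80.9 reads per cytosine in the knockout libraries, against 186.7, 144.8 and 396.9 in the wild-type libraries. Segment 9, among the least covered, had 13.7, 14.8 and 6.97 in the knockout libraries, against 27.6, 22.6 and 43.4 in the wild-type libraries.

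The contractile genes overlapped between the genotypes. Tagln (NM_011526.5, chromosome 9), an actin-binding protein of smooth muscle and of cultured fibroblasts, had 27.2, 27.9 and 23.5 reads per cytosine in the knockout libraries, against 18.9, 18.1 and 26.2 in the wild-type libraries. The groups overlapped through wild-type replicate 3. The means were 26.2 ± 2.32 in knockout and 21.1 ± 4.49 in wild type (SD, n = 3 each), with a log2 difference of 0.32 (SE 0.17, limma adjusted p = 0.817). Vim per Tagln was 1.33, 1.24 and 1.59 in the knockout libraries, against 5.16, 4.29 and 6.83 in the wild-type libraries, with no overlap between the genotypes. Vim per Acta2 was 1.48, 1.48 and 5.29 in the knockout libraries, against 4.97, 4.62 and 7.65 in the wild-type libraries, and overlapped through knockout replicate 3. Whether Vim and the contractile genes differed in their response was not tested.

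Acta2 (NM_007392.3, chromosome 19) encodes smooth muscle actin, the actin of myofibroblasts. It had 24.4, 23.4 and 7.08 reads per cytosine in the knockout libraries, against 19.6, 16.8 and 23.4 in the wild-type libraries. Knockout replicate 3 stood well below the other 5 libraries, and without it the log2 difference was 0.25, against -0.30 (SE 0.43, limma adjusted p = 0.984) with all libraries. Acta2 per Tagln was 0.896, 0.839 and 0.301 in the knockout libraries, against 1.04, 0.926 and 0.893 in the wild-type libraries, again with knockout replicate 3 apart. The actin genes are nearly identical in their coding sequence, and reads of other actins placed on this reference cannot be told apart here. Coverage lay mainly in segments 1 to 5 of the reference. In segment 6 it was 6.07, 6.36 and 0 reads per cytosine in the knockout libraries, against 3.55, 6.66 and 0 in the wild-type libraries.

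**Figure D4:**
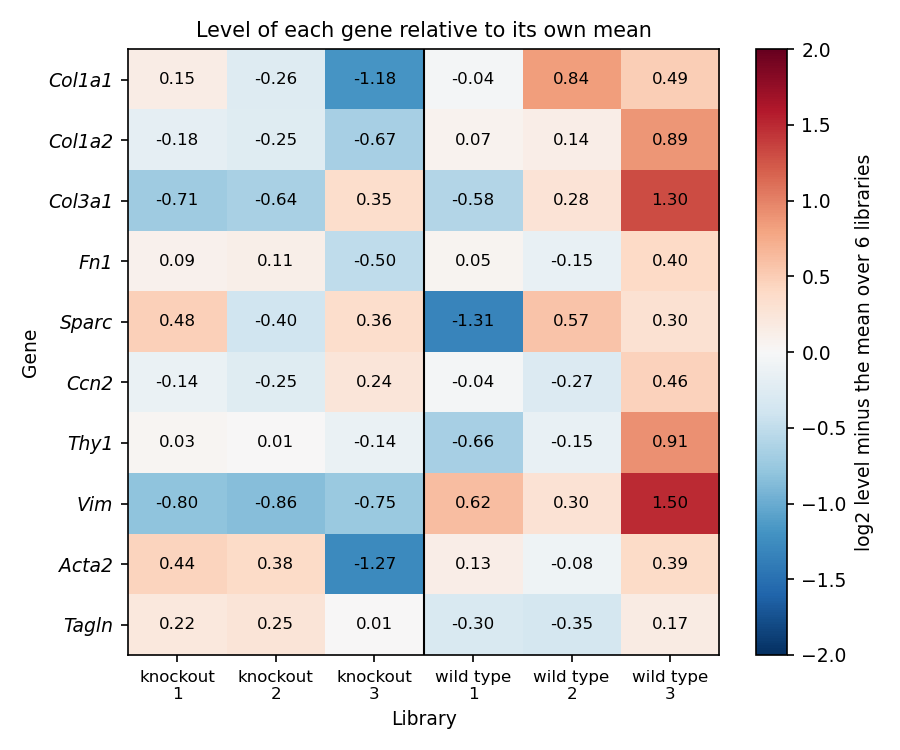
Log2 level of each gene in each library minus that gene's mean over the 6 libraries, with the knockout libraries on the left. Vim is below its mean in all knockout libraries (-0.86 to -0.75) and above it in all wild-type libraries (0.30 to 1.50), and knockout replicate 3 is the lowest library for Col1a1 and Acta2 (-1.18 and -1.27).

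Single libraries carried much of the variation. Wild-type replicate 3 was the highest library for 6 of the 10 genes (Col1a2, Col3a1, Fn1, Ccn2, Thy1 and Vim), against 23.9% of all references tested, and the lowest for 0 of them, against 28.5% of all references. Knockout replicate 3 was the lowest library for 4 (Col1a1, Col1a2, Fn1 and Acta2), against 14.1% of all references. Wild-type replicate 3 is also the shallowest library, and the part of depth in these levels was not tested. For Vim, the knockout libraries lay below the wild type with and without the replicate 3 libraries: the other wild-type libraries, at 97.3 and 77.7 reads per cytosine, were both above every knockout library.

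A comparison of the replicate 3 libraries with replicates 1 and 2, with genotype in the model, was added after the values were seen. In limma 3.90% of all references passed an adjusted p under 0.05 in it, and 0 of the 10 genes did. Ccn2 came nearest, with a log2 difference of 0.52, replicate 3 minus the others (SE 0.12, limma adjusted p = 0.0549). Ccn2 and Vim were the 2 genes with an unadjusted p under 0.05. The share of all references at that unadjusted level is not given here, so this count has no background to be read against. The median over the 10 genes was 0.33, against -0.03 over all references.

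Summed over the 10 genes, the scaled mean coverage was 190.9, 180.8 and 171 in the knockout libraries, against 234.8, 211.7 and 377.8 in the wild-type libraries. The sums did not overlap, but this rested on Vim. The other 9 genes, summed after these values were seen, came to 154.8, 146.1 and 133.5 in the knockout libraries, against 137.5, 134.0 and 198.5 in the wild-type libraries, and overlapped. Other matrix proteins, of which 16 of 20 genes were listed, summed to 47.9, 41.4 and 57.9 in the knockout libraries, against 34.8, 42.9 and 130.9 in the wild-type libraries. Here the groups overlapped and wild-type replicate 3 stood apart. The glycoprotein Thbs1 had 15.4, 15.2 and 20.2 reads per cytosine in the knockout libraries, against 12.1, 11.8 and 33.4 in the wild-type libraries, and the tenascin gene Tnc had 6.39, 5.75 and 6.87 in the knockout libraries, against 5.82, 6.32 and 23.9 in the wild-type libraries. Fbln2, a fibulin, showed the same high value in wild-type replicate 3, with 4.40, 3.99 and 6.47 in the knockout libraries, against 2.88, 3.27 and 20.4 in the wild-type libraries.

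None of the 57 references tested in the 5 fibroblast-related lists passed the adjusted p in limma, and 4 had an unadjusted p under 0.05, against 7.11% of all references, a share near that of the lists. These were Nt5e, with higher values in knockout, and Ccn1, Mmp2 and Itgb1, with lower values in knockout. Nt5e and Ccn1 are named because of these values. Among other matrix proteins, 2 of 13 references had a positive and 11 a negative log2 difference, with a median of -0.46, against 0.03 over all references. In collagen processing and cross-linking, which turns procollagen into fibres, 7 of 13 were positive and 6 negative, with a median of 0.00. Its most covered gene, P4hb, a subunit of the prolyl hydroxylase that also acts as a disulphide isomerase in all cells, had 94.7, 89.9 and 90.9 reads per cytosine in the knockout libraries, against 90.0, 75.7 and 107.5 in the wild-type libraries. Crtap, of the prolyl 3-hydroxylation complex, ranged from 23.3 to 28.7 in the knockout libraries and from 22.7 to 30.6 in the wild-type libraries, and Pcolce, an enhancer of procollagen cleavage, from 11.9 to 16.8 in the knockout libraries and from 12.3 to 17.2 in the wild-type libraries.

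The list of contractile genes and targets of SRF or YAP had 6 of 13 references positive and 7 negative, with a median of -0.06. In it Tagln2 ranged from 37.3 to 46.0 reads per cytosine in the knockout libraries and from 32.7 to 53.0 in the wild-type libraries. The focal adhesion protein vinculin (Vcl) ranged from 25.9 to 26.7 in the knockout libraries and from 21.8 to 30.1 in the wild-type libraries, and the calponin Cnn2 from 21.3 to 30.1 in the knockout libraries and from 19.3 to 30.8 in the wild-type libraries. All of these overlapped between the genotypes. Matrix receptors and TGF-beta signalling had 5 of 9 references positive and 4 negative, with a median of 0.01. Itgb1, the beta 1 integrin subunit that pairs with collagen- and fibronectin-binding alpha subunits, had 41.2, 49.0 and 41.3 in the knockout libraries, against 96.0, 63.9 and 80.0 in the wild-type libraries, without overlap. Smad7, an inhibitor of TGF-beta signalling, ranged from 15.4 to 22.3 in the knockout libraries and from 13.2 to 17.3 in the wild-type libraries, and Itga5, the fibronectin receptor subunit, from 8.73 to 13.8 in the knockout libraries and from 10.1 to 13.8 in the wild-type libraries.

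For mesenchymal identity, 12 of 18 genes had a listed cytosine, and Pdgfra, Pdgfrb, Prrx1, Snai2, Fap and Cd44, which include defining markers of fibroblasts, had none in any of the 6 libraries. Lum and Postn, matrix genes of fibroblasts, had none either. An unlisted gene is not thereby an unexpressed one. Its RNA may lie below the lowest deposited coverage of 3, or its reference may be missing or unmatched to a symbol. These could not be told apart, here or for unlisted genes of the other lists, among them P3h1, Ddr1 and Tgfbr2. Of the 9 references tested, 2 were positive and 7 negative, with a median of -0.50. The most covered was the galectin Lgals1, with 56.5, 53.2 and 52.7 reads per cytosine in the knockout libraries, against 67.9, 44.5 and 78.4 in the wild-type libraries, which overlapped. Mmp2, a matrix metalloproteinase, had 6.16, 5.92 and 5.18 in the knockout libraries, against 8.66, 7.59 and 8.70 in the wild-type libraries, without overlap. Timp3, a metalloproteinase inhibitor, ranged from 2.17 to 4.25 in the knockout libraries and from 2.09 to 4.08 in the wild-type libraries.

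Markers of other cell types were set beside these levels. Pluripotency genes, all 20 listed, summed to 3257, 3179 and 2543 in the knockout libraries, against 2597, 2296 and 2331 in the wild-type libraries, many times the sum of the 10 genes in every library. Of their 21 references tested, 17 had a positive and 4 a negative log2 difference, with a median of 0.29, against 0.03 over all references. None passed the adjusted p in limma, and at an unadjusted p under 0.05 there were 6 higher in knockout and 1, Klf2, lower. Over all references 7.11% were at that unadjusted level in either direction. The knockout libraries all lay above the wild-type libraries for 5 of the 21 references, against 6.13% of all references. They all lay below for 1, against 5.98% of all references. Dppa5a, the most covered, had 1794, 1746 and 1279 reads per cytosine in the knockout libraries, against 1245, 950.4 and 990.9 in the wild-type libraries. It thus made up a large part of each sum, and sums without it were not computed. Zfp42 ranged from 328.3 to 334.5 in the knockout libraries and from 273.7 to 372.2 in the wild-type libraries. The list for primitive and parietal endoderm, 11 of 15 listed, summed to 100.2, 90.6 and 84.3 in the knockout libraries, against 80.6, 70.8 and 89.8 in the wild-type libraries, led by the laminin genes Lamc1 (37.7 to 45.2 in the knockout libraries and 38.3 to 50.5 in the wild-type libraries) and Lamb1 (24.9 to 30.2 in the knockout libraries and 16.6 to 26.4 in the wild-type libraries), while Sox17 and Foxa2 had no listed cytosine. Of the 7 endoderm references tested, 4 were positive and 3 negative, with a median of 0.35, none passed the adjusted p in limma, and Lama1 was the 1 with an unadjusted p under 0.05, higher in knockout. Mesoderm and primitive streak, 8 of 12 listed, summed to 1.40 to 9.46 in the knockout libraries and 1.47 to 3.95 in the wild-type libraries, with T at 0 to 2.99 in the knockout libraries and 0 to 2.53 in the wild-type libraries, and Gsc at 0.422 to 1.73 in the knockout libraries and 0.0213 to 1.33 in the wild-type libraries. Smooth muscle, endothelium and blood, 5 of 11 listed, summed to 9.05 to 12.8 in the knockout libraries and 7.87 to 22.7 in the wild-type libraries, with Des at 4.77 to 5.03 in the knockout libraries and 5.53 to 6.20 in the wild-type libraries, and Pecam1 at 0.494 to 4.12 in the knockout libraries and 0 to 7.66 in the wild-type libraries. Myh11 and Ptprc had no listed cytosine. The part of such cells in the levels of the 10 genes was not tested.

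**Figure D5:**
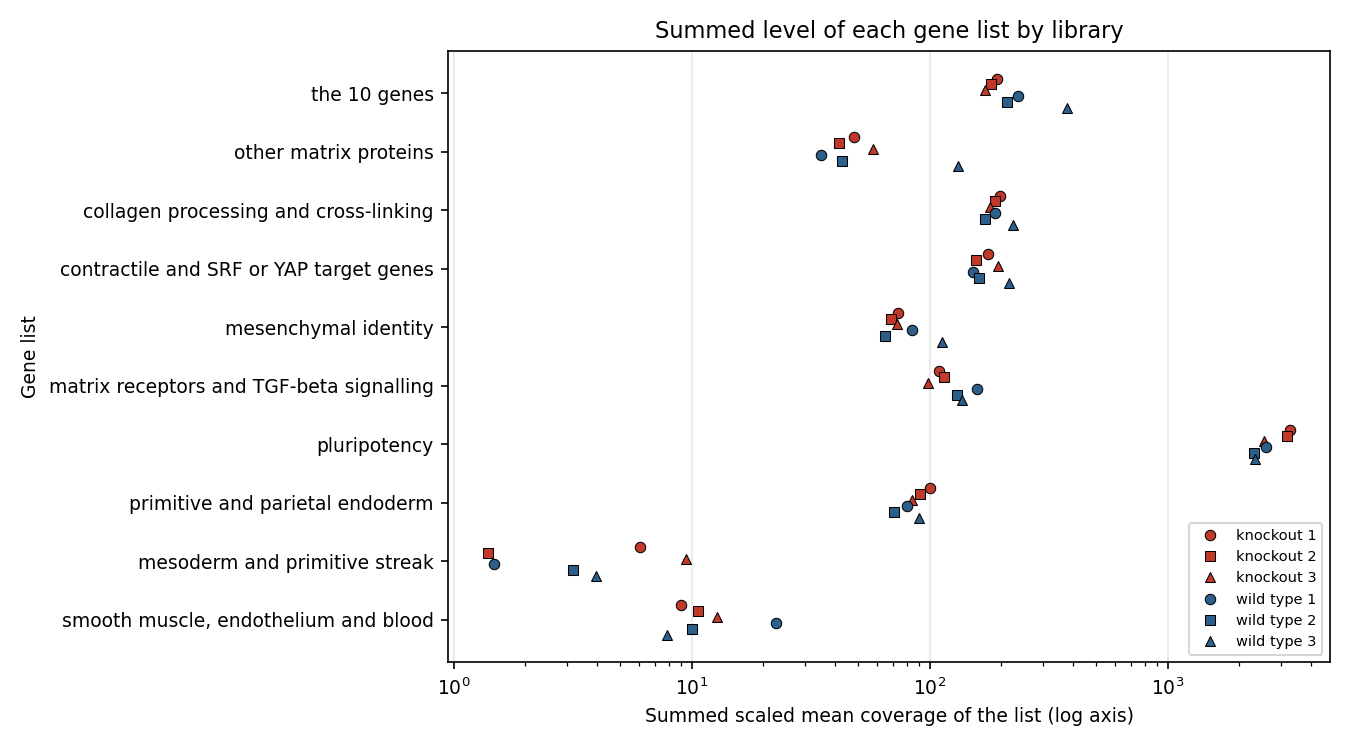
Summed scaled mean coverage of each gene list in each library (logarithmic axis), with knockout and wild-type libraries in separate colours. The 10 genes sum to 171 to 190.9 in the knockout libraries and 211.7 to 377.8 in the wild-type libraries. This separation rests on Vim. The other 9 genes overlap, at 133.5 to 154.8 in the knockout libraries and 134.0 to 198.5 in the wild-type libraries. The pluripotency genes sum to 2543 to 3257 in the knockout libraries and 2296 to 2597 in the wild-type libraries. Dppa5a alone makes up 1279 to 1794 of this in knockout and 950.4 to 1245 in wild type.

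The 3 fibrillar collagens were averaged into a profile over the 6 libraries, as log2 levels centred on each gene's mean, of -0.25, -0.38 and -0.50 in the knockout libraries, against -0.18, 0.42 and 0.89 in the wild-type libraries. Pearson's r with this profile is a description over 6 points that share library depth. The collagens that form it stood at 0.932 for Col1a2, 0.767 for Col1a1 and 0.761 for Col3a1, so the profile followed Col1a2 most closely. Of the other genes of the set, Vim was nearest at 0.862, above Col1a1 and Col3a1. Thy1 followed at 0.673, Fn1 at 0.573, Ccn2 at 0.400, Acta2 at 0.378 and Sparc at 0.306, and Tagln stood at -0.14. Outside the set, 1843 references with a mean of 5 or more reads per cytosine and enough variation were ranked. The 10 most alike were Ccdc85b (r 0.988), Cherp (0.970), Slc27a1 (0.963), Dlc1 (0.958), Sfrp1 (0.952), Dhodh (0.952), Ube2t (0.948), Olfr613 (0.947), H2ac23 (0.945) and Gprasp1 (0.944). Their chromosomes and their expression in fibroblasts were not examined. A place on this list does not make a gene a fibroblast gene. The most alike, Ccdc85b, had 13.0, 11.3 and 11.3 reads per cytosine in the knockout libraries, against 12.6, 16.8 and 19.1 in the wild-type libraries. Cherp, the next, had 14.1, 13.4 and 13.5 in the knockout libraries, against 17.2, 20.4 and 24.5 in the wild-type libraries. Of the 1843 references ranked, 28 had an r above 0.9.

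The cytosines of the 10 genes were also read for non-conversion, the percentage of reads in which a cytosine stayed unconverted. Pooled over all their reads, it was 1.77%, 1.81% and 1.45% in the knockout libraries, against 1.58%, 1.49% and 1.57% in the wild-type libraries. The background was pooled over all cytosines with a coverage of 10 or more and a non-conversion of 10% or less in that library. It was 1.77%, 1.76% and 1.42% in knockout, against 1.59%, 1.45% and 1.50% in wild type. The 10 genes lay close to it in each library, though their own value was pooled without these limits. At a coverage of 10 or more in each library of a genotype, 0 of 1190 cytosines reached 10% in every knockout library, against 0.0329% of all such cytosines, and 0 of 1112 did so in every wild-type library, against 0.0218% of all. Coverage of 10 or more in all 6 libraries was reached by 994 of their 5177 cytosines, in 7 of the genes, with none in Col3a1, Sparc and Thy1.

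Genotypes were compared by the edgeR quasi-likelihood test at cytosines with a mean non-conversion of 5% or more, of which 1 lay in the 10 genes. Over all 8186 cytosines tested, 0.00% passed an adjusted p under 0.05 and 201 had an unadjusted p under 0.05. The cytosine at position 634 of Vim had 10.0%, 9.09% and 5.41% in the knockout libraries, against 2.33%, 3.42% and 0% in the wild-type libraries, from 22 to 117 reads per library. Its values did not overlap, at 8.17% ± 2.43 in knockout and 1.92% ± 1.75 in wild type (SD, n = 3 each), but the difference of 6.25 percentage points did not pass (edgeR unadjusted p = 0.0977, adjusted p = 0.999). The next highest means were at position 2991 of Col1a2 (4.97%), position 542 of Vim (4.91%), position 4327 of Fn1 (4.84%) and position 608 of Tagln (4.16%), each under the level tested.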

How the data were processed

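The 6 libraries of the rRNA-depleted long RNA fraction were used, 3 per genotype, of 16 in the series. Per the file headers, the deposited files hold 2 values per cytosine: coverage, a raw count of reads, and the unconversion ratio, the fraction of them left unconverted. BSMAP and build mm9 are named per the submitters' processing notes. The sources used here give neither version nor filters. The lowest deposited coverage is 3, so an unlisted cytosine was taken as 0. Of 15330 references, 15235 were matched to a symbol through RefSeq (GRCm38.p6), used for names, chromosomes and promoters only.

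Coverage of a reference was averaged over cytosines listed in any library, scaled by TMM (edgeR 4.0.16), kept where it averaged at least 1, and compared by limma-trend (limma 3.58.1, R 4.3.3) on log2 of the value plus 0.5, which understates changes of low genes. A read counts once per cytosine it covers, so the value is not a read count, and without molecular identifiers a read is not a molecule. Non-converted and converted counts were tested per cytosine with edgeR's quasi-likelihood test, at a coverage of 10 or more in every library. The fits were tested on simulated data. The simulated coverage had its SD capped at 0.5 (log2), so it varied less than the more variable references here. These runs thus do not show how the coverage fit performs at the spread of such references. Scaling, pseudocount, filters, coverage minimum, the handling of unlisted cytosines, the replicate number and left-out libraries were varied. All 10 genes are named, with the 3 most covered genes of each fibroblast-related list, the 2 most covered of each other list, and the 10 references most like the collagen profile. The genes and lists were chosen with earlier results of these data known.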

Additional observations from a re-analysis of the deposited data

How the results depend on the processing

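The number of changed references was 0, but 1 with cytosines listed in every library, 3 with unlisted cytosines as 2 reads, and 0 to 1 when each library was left out in turn (1 without knockout replicate 1). Among the 10 genes it was 0, but 1 with unlisted cytosines as 2 reads, which was Vim. The count of changed cytosines was 0, but 27 in Fisher's exact test on summed counts and 0 to 1 with each library left out (1 without wild-type replicate 3). Vim ranged from -1.86 to -1.27 (log2) and its adjusted p from 0.039 to 0.978 over all settings. The log2 difference turned its sign for Fn1 (0.044 with unlisted cytosines as 2 reads, 0.14 without both replicate 3 libraries), Sparc (-0.29 without wild-type replicate 1), Ccn2 (0.021 with cytosines listed in every library, 0.14 with unlisted cytosines as 2 reads, 0.00030 without knockout replicate 2, 0.10 without wild-type replicate 3), Thy1 (0.37 without wild-type replicate 3, 0.43 without both replicate 3 libraries) and Acta2 (0.25 without knockout replicate 3, 0.37 without both). Col1a1, Col1a2, Col3a1, Vim and Tagln kept their sign in every setting that tested them. Leaving out each library in turn gave ranges of -0.29 to 0.64 for Sparc, -0.26 to 0.10 for Ccn2, -0.41 to 0.37 for Thy1 and -0.59 to 0.25 for Acta2, and of -1.14 to -0.49 for Col1a1, -0.88 to -0.49 for Col1a2, -1.13 to -0.48 for Col3a1, which was not tested without wild-type replicate 2 or 3, -0.33 to -0.0088 for Fn1, -1.86 to -1.27 for Vim and 0.22 to 0.48 for Tagln. The replicate block gave 0 changed references and 0 changed cytosines, and Vim at an adjusted p of 0.0931. Same-numbered libraries correlated at 0.139, 0.040 and 0.304 in their deviations, against -0.291 to 0.216 for differently numbered ones. The value for replicate 3 was thus the highest, while those for replicates 1 and 2 lay within the range of the differently numbered ones. The numbers were not taken as pairs in the main fit. Without both replicate 3 libraries, 3 genes in place of 2 had all knockout libraries below wild type, with Col3a1 added. With 2 libraries per genotype such an order arises more easily than with 3. The share of all references in that setting was not computed, so the counts cannot be compared. Depth limits Col3a1, Thy1, Col1a1, Col1a2 and Sparc, which rest on few reads per cytosine.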
